A study of Mus musculus with 7 samples.

Results

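The comparison set the colon epithelium 3 days after dextran sulfate sodium (DSS) treatment against the same tissue 1 day after it, in mice given DSS alone. It used 2 of the 7 libraries of the series, the one labelled day 3 after DSS and the one labelled day 1 after DSS. The mice of all libraries were female hCYP1A animals of the C57BL/6 strain, 6 weeks old. hCYP1A mice carry human CYP1A genes in place of the mouse ones, and mouse Cyp1a1 and Cyp1a2 had 0 reads in every library. The DSS mice drank 1.5% DSS for 5 days, and those of the PhIP/DSS arm were first given 2 doses of 100 mg/kg of PhIP, a carcinogen of cooked meat, 4 days apart, with the same DSS course a week later. The control mice were untreated. Treated mice of both arms were killed on days 1, 3 and 7, and the epithelium was scraped off the muscle layer of the colon.

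Each library was 1 pool of RNA from 3 mice, so the comparison had 1 pool a side and no replicate error, and no p-value is given. The day 1 library held 8730073 uniquely mapped reads and the day 3 library 8781886. The other 5 libraries held between 7664276 and 8536432. The labels call the tissue colon epithelium with colitis on both days. All 10 general epithelial markers were abundant in both libraries, with summed levels of 11410 RPKM (reads scaled to gene length and library total) on day 1 and 9749 on day 3, among them Krt8 at 3865 and 3096 and Epcam at 812 and 895.5. Transcripts of other cell types were present too, and their levels are given beside the results they move with. The PhIP/DSS day 1 library stood apart, with summed adipocyte markers at 165 RPKM and erythroid markers at 105, against 4.42 and 24.2 in the DSS day 1 library. It enters values of the DSS pair only under the alternative TMM and DESeq2 scalings, whose factors came from all libraries of the series. Elsewhere it enters only the levels and ratios given for PhIP/DSS. In bulk RNA, fewer cells of a type and less RNA per cell cannot be told apart.

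DSS is toxic to the epithelium of the colon and opens the mucosa to gut bacteria. Neutrophils enter the injured tissue from the blood, drawn by chemokines of the CXC family, and release calprotectin (S100A8 and S100A9), granule proteases and the siderophore-binding protein lipocalin 2. The epithelium is rebuilt from the crypts by dividing cells that turn into mucus-secreting goblet cells and absorptive colonocytes.

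A gene was counted as higher or lower on day 3 where its depth-scaled reads differed at least 2-fold and the exact 95% interval of the ratio excluded 1. These intervals cover counting error only and say nothing of the spread between mice. Of 13477 genes with at least 10 reads over the pair, 657 (4.87%) were higher on day 3 and 164 (1.22%) were lower, 6.09% in all. The higher group held 252 genes with at least a 4-fold difference and 79 with at least an 8-fold one, against 37 and 9 of the lower group. Of the 657 higher genes, 11 had no read on day 1 and 76 had 1 to 3 reads. Most genes differed little, as the lower and upper quartiles of all log2 ratios were -0.23 and 0.20 and the median was -0.02. With both libraries scaled to the epithelial markers in place of all reads, 863 genes were higher and 96 lower, and the share of higher genes among those counted went from 80% to 90%.

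**Figure D1:**
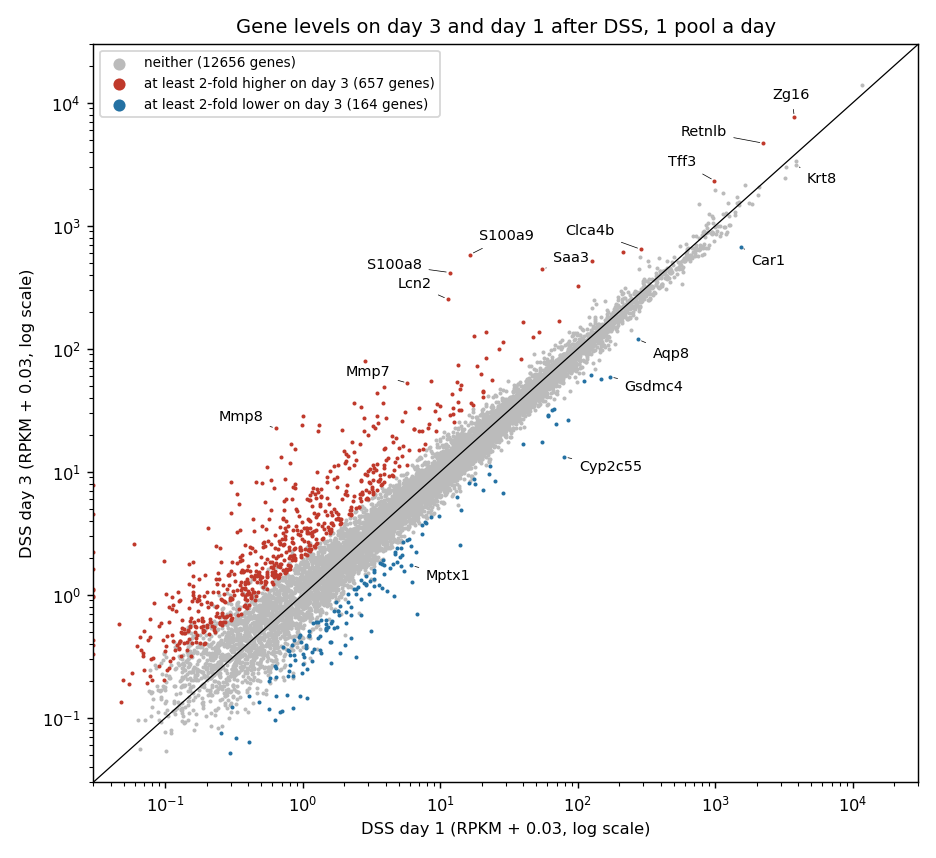
Level of each of 13477 genes on day 3 (vertical) against day 1 (horizontal) after DSS, in RPKM plus 0.03 on log axes, 1 pool of 3 mice a day. The 657 red genes were at least 2-fold higher on day 3 and the 164 blue ones at least 2-fold lower, with counting intervals that exclude 1; the red group reaches ratios of over 30, with S100a8 going from 11.7 to 416 RPKM, and Cyp2c55, among the blue ones, from 79.9 to 13.2.

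Neutrophil genes were among those with the highest ratios. S100a8 and S100a9 encode the 2 subunits of calprotectin. S100a8 stood at 11.7 RPKM (40 reads) on day 1 and 416 RPKM (1433 reads) on day 3, a 35.6-fold difference (interval 26.0 to 50.1). S100a9 stood at 16.4 and 583 RPKM, 35.5-fold higher (28.0 to 45.6). In the untreated control they were at 0.333 and 0.802 RPKM, and on day 7 at 154.5 and 236. Mmp8, the neutrophil collagenase, had the highest ratio of the genes counted that reached 5 RPKM and had reads on day 1, with 13 reads on day 1 and 485 on day 3 (0.607 and 22.5 RPKM, 37.1-fold, interval 21.5 to 70.2). Ngp, a granule protein, went from 0.974 to 28.3 RPKM (29.0-fold, 15.6 to 61.2), and Retnlg, a resistin-like protein of granulocytes, from 2.82 to 79.3 (28.2-fold, 16.9 to 50.8).

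Receptors and enzymes of neutrophils were also higher. Csf3r, the receptor for granulocyte colony-stimulating factor, stood at 0.667 RPKM on day 1 and 13.2 on day 3, Fpr1, a receptor for bacterial formyl peptides, at 0.430 and 8.21, Trem1, an activating receptor, at 0.303 and 6.51, and Mmp9, the granule gelatinase, at 0.791 and 16.7. Il1r2, a decoy receptor for interleukin 1, went from 0.842 to 15.2 RPKM. G0s2 rested on 2 reads on day 1 and 61 on day 3, a ratio of 30.3 with an interval of 8.04 to 256. Prok2, a secreted prokineticin, had no read on day 1 and 60 on day 3, a ratio of 19.9 with the 0 entered as 3 reads.

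Of the 25 neutrophil markers examined, 20 had at least 10 reads over the pair and all of these were higher on day 3, with a median log2 ratio of 4.13. A rare gene can reach 10 reads only through the library where it is high, so the markers were also counted by day 1 alone, where 15 had at least 10 reads and 15 of them were higher. The lowest ratios were those of Ltf (lactotransferrin, 1.17 and 4.61 RPKM) and Lrg1 (28.5 and 113 RPKM). Cxcr1, Camp and Mpo had fewer than 10 reads, with Mpo at 0 in both libraries, and Ly6g and Elane were not among the genes analysed here. Summed over the list, neutrophil markers stood at 4.14 RPKM in the control, 73.7 on day 1, 1401 on day 3 and 576 on day 7.

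To show the sequence before the start of genes that were high together, the 250 bases upstream of the RefSeq start site (GRCm38.p6) are printed 5′ to 3′ for 6 of the higher genes and for the lower gene Cyp2c55. Capitals mark matches, on either strand, to motifs named for C/EBP (TTGCNNAA), NF-kB (GGG, any 5 bases, CC), IRF (GAAA, any 2 bases, GAAA) and the TATA box (TATAAA).
Mmp8 (chr9:7558179-7558428, plus strand): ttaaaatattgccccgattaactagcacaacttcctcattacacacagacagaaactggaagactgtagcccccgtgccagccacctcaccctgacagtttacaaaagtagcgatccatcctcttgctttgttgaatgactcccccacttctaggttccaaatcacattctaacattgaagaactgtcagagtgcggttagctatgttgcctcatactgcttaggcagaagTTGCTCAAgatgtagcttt
S100a8 (chr3:90668821-90669070, plus strand): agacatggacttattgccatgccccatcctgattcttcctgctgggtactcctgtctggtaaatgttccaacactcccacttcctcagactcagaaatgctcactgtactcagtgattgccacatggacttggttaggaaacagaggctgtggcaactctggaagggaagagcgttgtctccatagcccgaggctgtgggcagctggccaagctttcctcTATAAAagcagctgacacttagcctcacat
S100a9 (chr3:90695722-90695971, minus strand): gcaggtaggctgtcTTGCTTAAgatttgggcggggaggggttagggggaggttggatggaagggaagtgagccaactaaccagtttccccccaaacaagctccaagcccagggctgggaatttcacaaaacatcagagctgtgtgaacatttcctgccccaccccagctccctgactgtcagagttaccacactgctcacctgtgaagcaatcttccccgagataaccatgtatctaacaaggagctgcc
Ngp (chr9:110419558-110419807, plus strand): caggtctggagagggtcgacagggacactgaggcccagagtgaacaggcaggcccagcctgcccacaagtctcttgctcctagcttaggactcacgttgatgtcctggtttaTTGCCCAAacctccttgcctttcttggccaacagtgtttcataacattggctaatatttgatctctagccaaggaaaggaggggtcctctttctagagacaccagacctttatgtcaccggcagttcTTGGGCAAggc
Lcn2 (chr2:32387740-32387989, minus strand): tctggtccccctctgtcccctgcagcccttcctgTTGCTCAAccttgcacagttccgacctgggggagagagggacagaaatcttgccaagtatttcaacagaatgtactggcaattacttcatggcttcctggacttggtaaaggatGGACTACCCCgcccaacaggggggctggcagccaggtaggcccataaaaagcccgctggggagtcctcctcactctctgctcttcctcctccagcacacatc
Saa3 (chr7:46715677-46715926, minus strand): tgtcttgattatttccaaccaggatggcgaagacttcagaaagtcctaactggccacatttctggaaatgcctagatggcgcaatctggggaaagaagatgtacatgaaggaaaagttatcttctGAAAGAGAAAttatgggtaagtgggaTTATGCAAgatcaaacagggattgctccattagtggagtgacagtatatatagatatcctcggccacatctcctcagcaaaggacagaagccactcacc
Cyp2c55 (chr19:39006769-39007018, plus strand): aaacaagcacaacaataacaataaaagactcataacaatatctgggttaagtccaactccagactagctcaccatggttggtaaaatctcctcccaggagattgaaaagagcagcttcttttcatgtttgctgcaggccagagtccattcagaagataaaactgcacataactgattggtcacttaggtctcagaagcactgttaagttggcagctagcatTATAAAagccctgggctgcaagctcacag
The windows follow the start sites of the RefSeq promoter table, which need not be the outermost start of a gene: Saa3 reaches to 46719615 on the minus strand and Cyp2c55 begins at 39006940 on the plus strand, so their windows lie wholly or partly inside the annotated gene. In these windows the capitals of different motifs do not overlap. Of the 43 genes named for the size of their ratio or their RPKM difference, 32 had an upstream sequence, 17 of them higher on day 3 and 15 lower. The C/EBP motif matched in 6 of the 17 higher genes (Lcn2, Mmp8, Ngp, Retnlg, S100a9 and Saa3) and in 1 of the 15 lower ones (Tgm3), against 9.55% of all 27025 upstream windows. The higher genes printed above were not picked by rank. All of them but S100a8 hold the C/EBP motif, so the printed set overstates how common it is. G0s2, which has a higher ratio than Lcn2 and Saa3 and is not printed, had no match to any motif. The TATA box matched in 3 of 17 and 8 of 15, against 13% of all windows, and NF-kB in 6 of 17 and 7 of 15, against 45.4%. AP-1 (TGANTCA) matched in 0 of 32, against 6.87% of all windows. STAT (TTCNNNGAA) matched in 3 higher genes, Chil3, Il1r2 and Trem1, against 7.18% of all windows, and IRF in Saa3 alone, against 3.04%. A match describes letters only, and binding was not measured.

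Several chemokines that recruit neutrophils were higher on day 3. Cxcl2 stood at 4.02 RPKM on day 1 and 27.2 on day 3 (6.78-fold, interval 4.81 to 9.79), Cxcl3 at 2.33 and 14.4, and the CC chemokine Ccl3 at 3.42 and 28.3. Cxcl1 (3.33 and 6.62 RPKM) and Pf4 (7 and 14 reads) differed 1.99-fold, just short of the count, and Cxcl5, made by epithelial cells, was level at 11.1 and 10.9 RPKM. Csf3, the growth factor of neutrophils, had 3 reads on day 1 and 13 on day 3, a ratio of 4.31 with an interval of 1.18 to 23.6. The list holds the cytokines Csf2, Csf3, Il17a and Il17f beside the chemokines. Of its 12 members 9 had 10 reads, of which 6 were higher, Csf3 and Il17a among them, and 0 lower (median log2 ratio 2.62). By day 1 alone, 6 had 10 reads and 4 of these were higher. Il17a was counted from 1 read on day 1 and 9 on day 3, a ratio of 8.95 with an interval of 1.24 to 392.2.

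Among cytokines, genes of interleukin 1 and oncostatin M were higher on day 3. Il1b stood at 17.7 RPKM (205 reads) on day 1 and 127 RPKM (1484 reads) on day 3, 7.196-fold higher (interval 6.215 to 8.37), and it was at 101 on day 7. Il1a went from 3.19 to 11.4 RPKM. Il1rn, the receptor antagonist, was at 94.7 and 133.5 RPKM and did not reach 2-fold, and Il18 and Il33, alarmins of epithelial and stromal cells, were at 126 and 111 and at 8.56 and 7.09. In the interleukin 1 list 5 of 11 members with 10 reads were higher and 0 lower.

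Osm, which encodes oncostatin M, went from 5 reads to 54 (0.300 and 3.22 RPKM), and Ptgs2, the inducible cyclooxygenase, from 2.02 to 13.9 RPKM (6.89-fold, 5.38 to 8.93). Tnf was at 3.89 and 9.49 RPKM and Socs3, a feedback inhibitor of STAT3 signalling, at 16.7 and 36.3. The shared receptor Il6st was at 7.82 and 7.999 RPKM and Stat3 at 49.0 and 57.2. Of 14 genes of this list with 10 reads 7 were higher and 0 lower, with a median log2 ratio of 1.02, and of the 12 with 10 reads on day 1 alone 6 were higher. Il6 had 0 reads on day 1 and under 10 over the pair, and Il22 had 0 in both.

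Antimicrobial and acute phase genes were mixed. Lcn2, lipocalin 2, stood at 0.765 RPKM in the control, 11.3 on day 1, 253 on day 3 and 46.9 on day 7, 22.4-fold higher on day 3 than on day 1 (interval 18.03 to 28.3). Saa3, an acute phase gene, stood at 1.72, 55.2, 441.5 and 122 RPKM in the same order (7.996-fold, 7.02 to 9.14). The bactericidal lectin genes Reg3b and Reg3g went from 39.99 to 166 RPKM and from 13.8 to 47.1, and on day 7 they were at 4.15 and 3.44. Nos2, the inducible nitric oxide synthase, stood at 21.45 and 84.8 RPKM, and the complement gene C3 at 5.27 and 25.6. Retnlb, a goblet cell protein active against bacteria, was at 2236 and 4683 RPKM, 2.09-fold higher.

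Other abundant members did not reach 2-fold. Lypd8 and Dmbt1, which keep bacteria off the epithelium, were at 11750 and 13830 RPKM and at 1635 and 2152, and Duox2 with its maturation factor Duoxa2 at 64.6 and 85.6 and at 64.0 and 96.8. Ang4, a bactericidal angiogenin, was lower, at 22.9 RPKM on day 1 and 11.1 on day 3, against 178 in the control. With scaling to the epithelial markers the log2 ratio of Ang4 was -0.83, under 2-fold. In all 9 of the 21 members with 10 reads were higher and 1 lower.

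**Figure D2:**
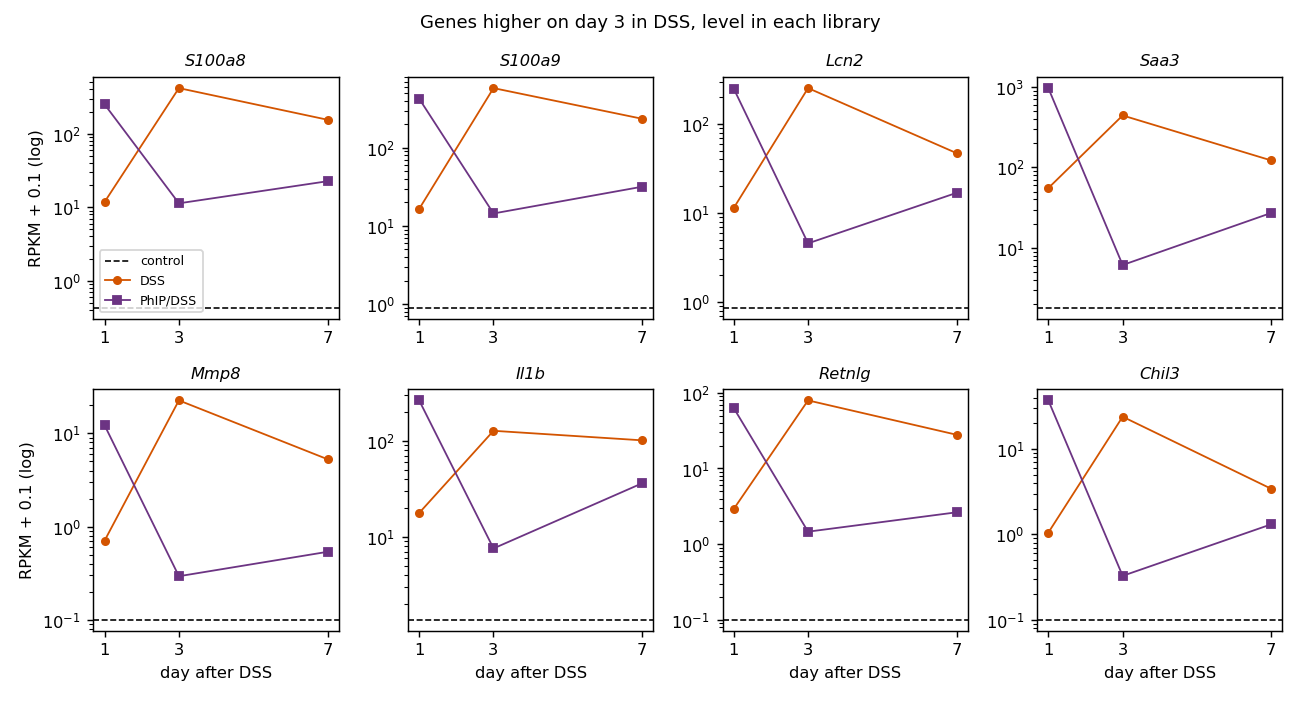
Levels of 8 genes that were higher on day 3 than on day 1 after DSS, in RPKM plus 0.1 on a log axis, by day after DSS in the DSS arm (orange circles) and the PhIP/DSS arm (purple squares), with the untreated control as a dashed line; each point is 1 pool of 3 mice. In each panel the DSS arm is higher on day 3 than on day 1, while the PhIP/DSS arm is lower on day 3, as in Lcn2 with 11.3 and 253 RPKM in DSS and 249.5 and 4.45 in PhIP/DSS, whose day 1 library also held the adipocyte and erythroid markers given above.

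Macrophage and monocyte markers were mostly higher as well. Chil3, a chitinase-like protein of activated myeloid cells, had 13 reads on day 1 and 328 on day 3 (0.950 and 23.8 RPKM), and Arg1, arginase 1, went from 2.77 to 27.45 RPKM (9.91-fold, interval 7.03 to 14.4). Itgam (CD11b), Ly6c2 and Ccr2, found on blood monocytes, stood at 2.32 and 11.3 RPKM, at 2.88 and 9.37 and at 0.479 and 1.62. The complement genes C1qa, C1qb and C1qc, typical of tissue macrophages, were at 7.41 and 7.89, 9.17 and 11.04, and 9.16 and 7.93 RPKM, and Mrc1, the mannose receptor, was at 1.55 and 1.20. Of 16 markers with 10 reads 11 were higher and 0 lower, and the summed level of the list was 122 RPKM on day 1 and 362 on day 3. Summed neutrophil markers stood at 73.7 and 1401 RPKM on the same days. The part of neutrophil RNA in the macrophage and monocyte values was not tested.

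The lymphocyte markers analysed were low on both days. The summed level of T and NK cell markers was 10.3 RPKM on day 1 and 10.9 on day 3, and of 12 members with 10 reads 1 was higher (Cd2, 5 and 18 reads) and 1 lower (Itgae, the integrin of intraepithelial lymphocytes, 1.07 and 0.445 RPKM), and of the 5 with 10 reads on day 1 alone 0 were higher and 1 lower. B and plasma cell markers summed to 17.8 and 27.0 RPKM with 0 of 8 counted in either direction. Jchain, among them, was at 7.81 and 15.1 RPKM, 1.93-fold higher and just short of the count (interval 1.575 to 2.38). Of the 13 B and plasma cell markers 4 were not among the genes analysed here, nor were 2 of the 18 T and NK markers. The sums leave these out.

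Mast cell proteases were lower on day 3. Mcpt1, the mucosal mast cell protease, stood at 24.96 RPKM on day 1 and 8.42 on day 3, 2.965-fold lower (interval 2.28 to 3.90), against 10.7 in the control. Cma1 was at 4.54 and 0.944 RPKM and Mcpt4 had 9 reads and 1, a 9.05-fold lower level with an interval of 1.25 to 397. Mcpt2 was at 12.03 and 6.33 RPKM, short of 2-fold, and the receptor gene Kit was at 6.36 and 7.07. Over the mast cell and eosinophil list 0 of 8 members with 10 reads were higher and 3 lower, and of the 5 with 10 reads on day 1 alone 2 were lower.

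Stromal genes were higher on day 3. Vim, the intermediate filament protein vimentin, stood at 14.1 and 50.5 RPKM and Fn1, fibronectin, at 1.26 and 6.85 (5.42-fold, interval 4.34 to 6.84). The fibrillar collagens Col1a1 and Col3a1 were at 7.71 and 16.9 RPKM and at 9.26 and 21.2, and the basement membrane collagens Col4a1 and Col4a2 at 3.62 and 9.46 and at 2.57 and 6.61. Of 18 fibroblast and matrix genes with 10 reads 11 were higher, 0 lower, and 18 above 0 on the log2 scale. Acta2, of myofibroblasts and smooth muscle, was at 3.88 and 4.25 RPKM, and smooth muscle and enteric nerve markers had 0 of 6 counted in either direction, with a summed 12.5 RPKM on day 1 and 12.1 on day 3. Endothelial markers were at a few RPKM or less, with 4 of 8 higher and 0 lower (2 of the 3 with 10 reads on day 1), among them Pecam1 at 0.936 and 2.07 RPKM.

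Matrix metalloproteinases and their inhibitors were among the lists with most members higher, 13 of 19 with 10 reads, with 0 lower and a median log2 ratio of 1.6. By day 1 alone, 17 had 10 reads and 11 of these were higher. Besides the neutrophil enzymes, Mmp13 was at 3.94 and 15.7 RPKM, the stromelysins Mmp3 and Mmp10 at 0.925 and 3.00 and at 5.33 and 16.1, and Timp1, an inhibitor, at 1.52 and 5.41. Mmp14 and Mmp15, anchored in the membrane, were near level at 33.0 and 37.7 and at 97.8 and 111. Mmp7, matrilysin, made by epithelial cells in inflamed colon, went from 5.74 RPKM (44 reads) to 52.5 RPKM (405 reads), 9.15-fold higher (6.69 to 12.8), against 0.297 in the control. Mmp7 also marks Paneth cells, and of the other Paneth and pancreas markers 5 were not among the genes analysed here and 4 were at 0 reads on day 1 and below 10 over the pair.

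**Figure D3:**
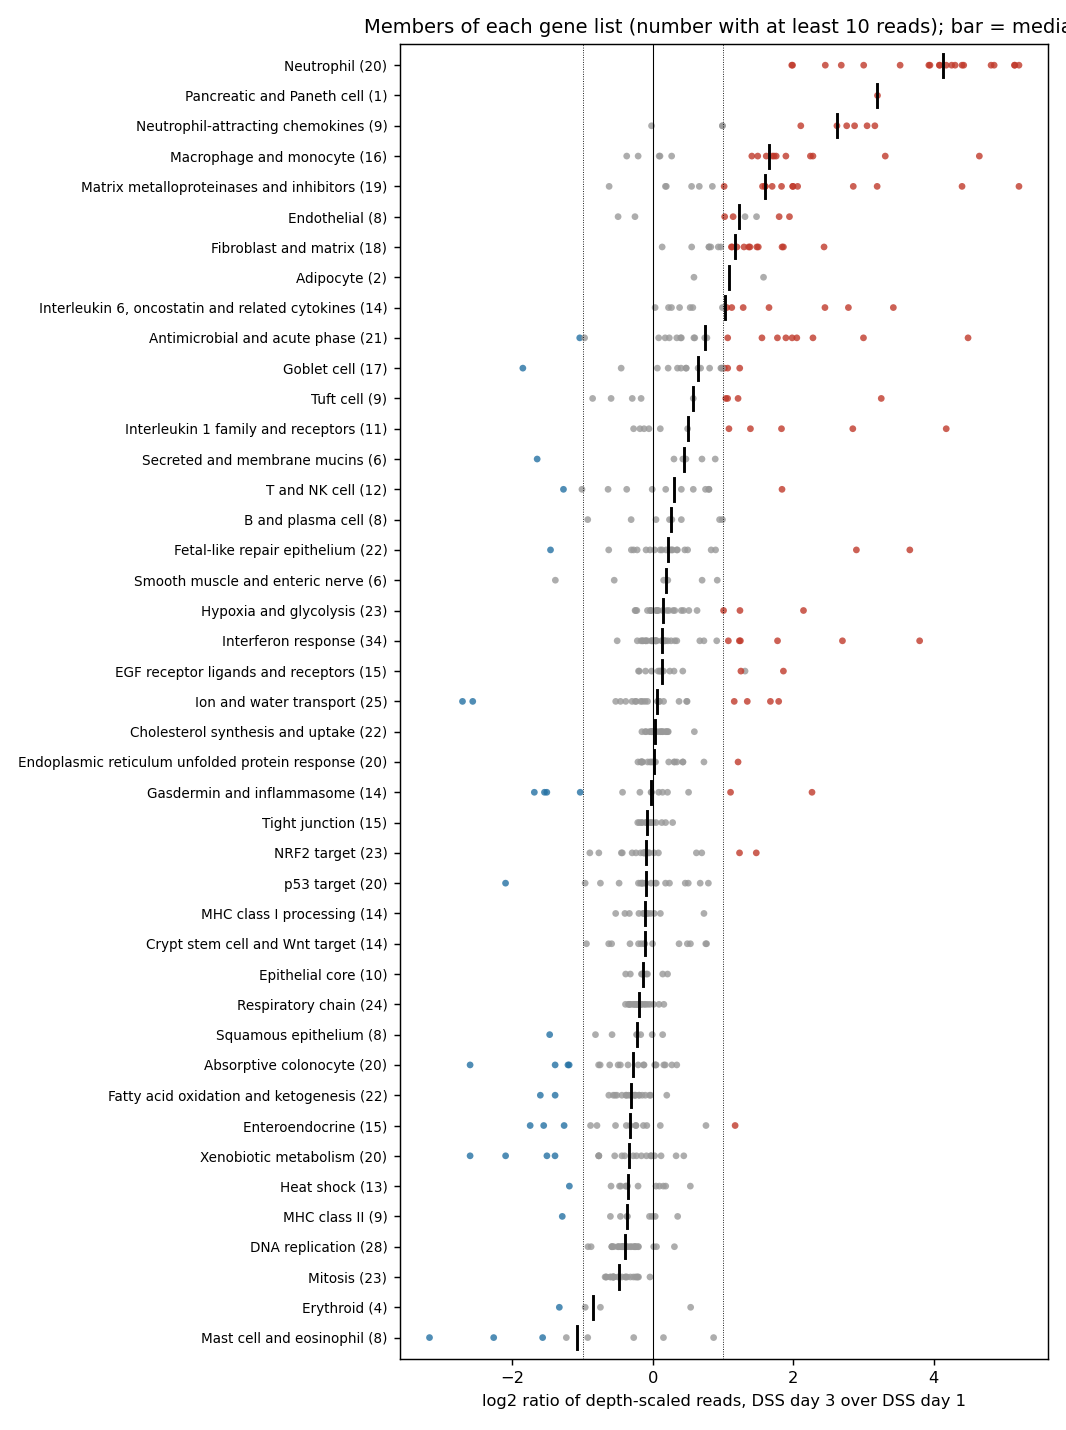
Log2 ratio of depth-scaled reads, day 3 over day 1 after DSS, for each member with at least 10 reads of 43 gene lists, ordered by median (black bar; number of members in brackets). Red and blue points are genes counted as higher or lower, grey ones neither, and dotted lines mark 2-fold; the 20 neutrophil markers lie farthest to the right, with a median of 4.13, and the 23 mitosis genes lie between -0.68 and -0.04.

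Most goblet cell genes were above their day 1 level on day 3, and 3 abundant ones were counted as higher. Zg16, a lectin of the mucus layer, had the largest gain in RPKM of any gene, from 3756 RPKM on day 1 to 7612 on day 3 (2.03-fold, interval 1.99 to 2.06), against 4704 in the control. Tff3, the trefoil peptide of mucosal repair, stood at 1658 RPKM in the control, 985 on day 1, 2323 on day 3 and 2551 on day 7. Klk1, Clca1 and Spink4 were just inside 2-fold, with ratios of 1.99, 1.97 and 1.96, and Fcgbp and Muc2, large proteins of the mucus gel, were at 325 and 521 RPKM and at 892 and 1238. Of the goblet cell transcription factors, Atoh1 was at 38.3 and 44.6 RPKM and Spdef at 43.2 and 55.1.

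Of 17 goblet cell genes 15 were above 0 on the log2 scale, 3 were counted as higher and 1 as lower, with a median log2 ratio of 0.65 beside -0.02 for all genes. The lower one was Mptx1, a pentraxin, which had 1804 RPKM in the control and only 6.13 on day 1 and 1.70 on day 3. The summed level of the list was 17060 RPKM in the control, 12250 on day 1, 22490 on day 3 and 18160 on day 7. Of the mucins Muc1 and Muc4 were at 6.71 and 12.4 RPKM and at 28.5 and 46.3, and Muc6, of gastric glands, had 28 reads on day 1 and 9 on day 3.

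Other genes of the epithelium were also higher. Spink1, a secreted trypsin inhibitor, stood at 272 RPKM in the control, 127 on day 1 and 515 on day 3 (4.06-fold, interval 3.67 to 4.50). Plet1, a surface protein, was at 11.45 RPKM in the control, 99.8 on day 1 and 326 on day 3 (3.27-fold, 3.09 to 3.46). Sval1 was at 212 and 613 RPKM and Clca4b, a chloride channel regulator with near-identical neighbours, at 288 and 642.5. Among transport genes the sodium channel subunits Scnn1b and Scnn1g went from 6.40 to 22.2 RPKM and from 5.91 to 15.02, while the third subunit, Scnn1a, was at 60.4 and 63.7. Best2, an anion channel of goblet cells, was at 19.6 and 62.7 RPKM. S100g and Trpv6, which take up calcium, were lower, at 3.10 and 0.474 RPKM (13 reads and 2, 6.54-fold lower, interval 1.48 to 59.7) and at 1.83 and 0.309. The transport list had 4 of 25 higher and 2 lower, with a median of 0.07, close to that of all genes.

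Several absorptive and metabolic genes were lower on day 3, and none of the colonocyte list was higher. Car1, carbonic anhydrase 1, had the largest loss in RPKM of any gene, from 1527 RPKM on day 1 to 669 on day 3 (2.28-fold lower, interval 2.22 to 2.35), and day 1 was itself above the control at 368. Aqp8, a water channel of surface colonocytes, was at 274.5 and 119 RPKM (2.31-fold lower, 2.17 to 2.45). Both Car1 and Aqp8 were close to the threshold: with scaling to the epithelial markers the log2 ratio of Car1 was -0.98 and the log2 ratio of Aqp8 was -0.998, just under 2-fold. Alpi, an alkaline phosphatase of the brush border, was at 40.2 and 16.9 RPKM, against 13.8 in the control. Of 20 absorptive colonocyte genes 0 were higher and 4 lower. The exchanger Slc26a3 was at 175 and 161 RPKM and the guanylin gene Guca2a at 1196 and 849, not counted. Tgm3, a transglutaminase, and Hao2, a hydroxyacid oxidase, were lower at 111 and 55.0 RPKM and at 124 and 60.95. With scaling to the epithelial markers the log2 ratio of Tgm3 was -0.81 and the log2 ratio of Hao2 was -0.81, and with TMM scaling both were at -0.99, under 2-fold. Fabp6, a bile acid carrier, had the lowest ratio of the named genes, with 30 reads on day 1 and 3 on day 3 (10.06-fold lower, interval 3.13 to 51.5). Trpm6, a magnesium channel, was at 14.1 and 4.84 RPKM, and Aadac, a lipid deacetylase, at 6.196 and 1.23.

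Fatty acid oxidation and ketogenesis genes had small differences, 21 of 22 below 0 on the log2 scale with a median of -0.31. Of these genes 2 were counted as lower, among them Pdk4, a brake on pyruvate oxidation (6.601 and 2.18 RPKM, against 1.17 in the control). Respiratory chain genes had 21 of 24 below 0 and none counted, with a median of -0.20, a sign that turns when libraries are scaled to the epithelial markers and the median of all genes is 0.19. In xenobiotic metabolism 4 of 20 members with 10 reads were lower and 0 higher. The cytochrome P450 genes Cyp2c55 and Cyp2c65 stood at 79.9 and 13.2 RPKM (6.07-fold lower, interval 5.27 to 7.01) and at 28.3 and 6.63 (4.27-fold, 3.47 to 5.29), and Ugt1a1 and Ces1g, a glucuronosyltransferase and a carboxylesterase, at 4.26 and 1.62 and at 3.25 and 1.14. Cyp2s1 and Sult1a1 were at 59.4 and 34.8 RPKM and at 66.6 and 39.1, short of 2-fold.

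The gasdermin C genes were lower together. These genes encode pore-forming proteins of the upper crypt and lie side by side on chromosome 15. Gsdmc4 was at 346 RPKM in the control, 172 on day 1, 59.1 on day 3 and 143 on day 7, Gsdmc2 at 214, 85.1, 26.45 and 55.5, and Gsdmc3 at 103, 20.3, 7.12 and 13.5. The day 3 level was the lowest of the DSS libraries for each of the 3. Similar sequence between them makes the share of reads given to each uncertain. Of the 14 members of the gasdermin and inflammasome list 2 were higher and 4 lower. Gsdmd, the gasdermin cut by inflammatory caspases, was near level at 98.55 and 108.5 RPKM, and Casp1 at 122 and 120.5. Casp4, another inflammatory caspase, was higher, at 3.84 and 8.26 RPKM (2.15-fold, interval 1.52 to 3.10). Nlrp3, an inflammasome sensor of myeloid cells, was higher, at 0.712 and 3.43 RPKM.

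**Figure D4:**
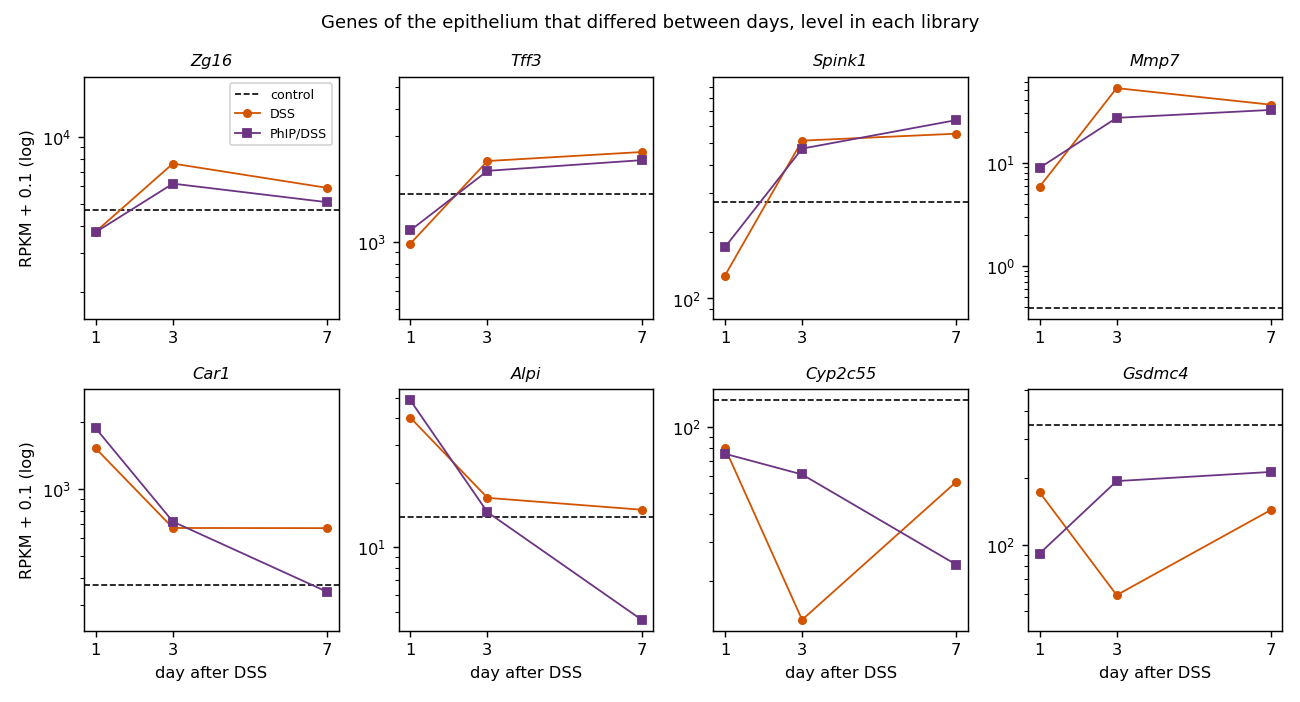
Levels of 8 epithelial genes, in RPKM plus 0.1 on a log axis, by day after DSS in the DSS arm (orange circles) and the PhIP/DSS arm (purple squares), with the untreated control as a dashed line; each point is 1 pool of 3 mice. Zg16, Tff3, Spink1 and Mmp7 are higher on day 3 than on day 1 in both arms and Car1 and Alpi lower in both, while Gsdmc4 is lower on day 3 in DSS (172 and 59.1 RPKM) and higher in PhIP/DSS (91.1 and 193), whose day 1 library also held the adipocyte and erythroid markers given above. In PhIP/DSS Zg16 and Tff3 are under 2-fold, with ratios of 1.65 and 1.86. Cyp2c55 is at 79.9 and 13.2 RPKM in DSS and at 75.2 and 60.6 in PhIP/DSS.

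Genes of DNA replication and mitosis were mostly below their day 1 level, and none reached 2-fold. The summed level of both lists was above the control on both days. Mitosis genes summed to 357.8 RPKM in the control, 562.6 on day 1 and 403.9 on day 3. Replication genes summed to 214.4, 427.1 and 321.7 RPKM in the same order. All 23 mitosis genes were below 0 on the log2 scale (median -0.48), from Aurkb at 16.2 and 15.8 RPKM to Cdc20 at 32.8 and 20.5. Mki67, the proliferation marker, was at 43.4 RPKM on day 1 and 29.6 on day 3 (1.47-fold lower, interval 1.40 to 1.54). Of 28 replication genes 25 were below 0 (median -0.40), among them the helicase subunits Mcm5 and Mcm7 at 21.96 and 14.7 RPKM and at 29.4 and 19.6. With scaling to the epithelial markers the median of all genes moved up to 0.19, and members just below 0, such as Aurkb and Top2a (37.8 and 32.8 RPKM), had ratios above 1. Crypt stem cell and Wnt target genes had 0 of 14 counted, with the stem cell receptor Lgr5 at 1.75 and 2.54 RPKM, Axin2 at 6.53 and 5.22 and Ascl2 at 3.13 and 1.62.

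Genes tied to repair or to fetal-like epithelium were mostly level between the days. Ly6d was at 227 and 244 RPKM, Ly6a at 719 and 820.5 and Anxa1 at 162 and 205. Of 22 members with 10 reads 2 were higher and 1 lower, among the higher ones Spp1, osteopontin (3.85 and 48.6 RPKM), which macrophages also make. Of the 21 with 10 reads on day 1 alone 1 was higher and 1 lower. Of the ligands of the EGF receptor Areg and Ereg were level at 42.2 and 46.9 RPKM and at 3.96 and 4.24. Egf was counted as higher from 10 reads on day 1 and 24 on day 3 (2.39-fold, interval 1.10 to 5.59). The list of EGF receptor ligands and related genes had 2 of 15 higher and 0 lower. The other higher member was Nrg1, made by stroma, at 1.09 and 3.95 RPKM.

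Enteroendocrine genes had 1 of 15 higher (Scg2, 0.691 and 1.56 RPKM) and 3 lower. The lower ones were Neurog3, the factor that sets the lineage, Insm1, which acts after it, and the neurotensin gene Nts. Neurog3 was at 0.678 RPKM in the control, 3.72 on day 1 and 1.11 on day 3. Insm1 was at 2.66, 2.64 and 0.8996 RPKM in the same order, and Nts at 2.87 and 1.20 on days 1 and 3. The hormone genes Pyy and Gcg were at 194 and 164 RPKM and at 98.4 and 53.2. Of 9 tuft cell genes with 10 reads 4 were higher, among them Alox5ap at 3.81 and 36.3 RPKM, Alox5 at 0.851 and 1.97 and Avil at 2.15 and 4.505, and of the 7 with 10 reads on day 1 alone 4 were higher. Alox5ap and Alox5 are also expressed by leukocytes. Over the list 5 members were above 0 on the log2 scale and 4 below, with 0 counted as lower. Trpm5 and Dclk1, among those below, were at 1.10 and 0.727 RPKM and at 0.816 and 0.666. The part of leukocyte RNA in the tuft cell values was not tested.

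Interferon response genes were level apart from a few. Of 34 members 6 were higher and 0 lower, with a median log2 ratio of 0.13, and of the 33 with 10 reads on day 1 alone 5 were higher. The higher ones were Cxcl9, Cxcl10 and Cxcl11, ligands of CXCR3 (3.15 and 7.49 RPKM, 6.44 and 22.1, and 1 and 14 reads), and the guanylate-binding proteins Gbp4, Gbp5 and Gbp6, with Gbp5 at 1.56 and 10.1. Irf7, Isg15 and Oasl2 were at 73.0 and 71.9 RPKM, 32.6 and 35.55, and 66.9 and 67.0. MHC class II genes had 0 of 9 higher and 1 lower, with Cd74, the invariant chain, at 158 and 104 RPKM.

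Stress lists had few members counted, beside 4.87% higher and 1.22% lower over all genes. Of the unfolded protein response 1 of 20 was higher (Chac1, 1.085 and 2.52 RPKM), with the chaperone Hspa5 at 278 and 285. NRF2 targets had 2 of 23 higher, Hmox1, heme oxygenase 1 (8.13 and 22.6 RPKM), and the cystine transporter Slc7a11 (2.20 and 5.17). Of 23 hypoxia and glycolysis genes 3 were higher, Pfkfb3, an activator of glycolysis (4.445 and 19.7 RPKM), the lactate exporter Slc16a3 (23.6 and 55.8) and Bnip3 (20.3 and 40.8). Heat shock genes had 1 of 13 lower, Hspa1a at 17.9 and 7.86 RPKM, and with scaling to the epithelial markers the log2 ratio of Hspa1a was -0.98, under 2-fold. Hspa1a has a near-identical neighbour, so its share of unique reads is uncertain. The p53 target p21, Cdkn1a, was at 231 and 237 RPKM, and tight junction (0 of 15) and cholesterol genes (0 of 22) had none counted.

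The same 2 days were then set side by side in the PhIP/DSS arm, which shares no library with the DSS pair. In that arm 533 of 13608 genes (3.92%) were higher on day 3 and 1175 (8.63%) lower. Of the 657 genes higher on day 3 in DSS, 638 had 10 reads in the PhIP/DSS pair, where 43 were higher and 453 lower, with a median log2 ratio of -2.16. Of the 164 lower genes, 161 had 10 reads there, with 29 higher, 28 lower and a median of 0.02. Each arm rests on 1 pool a day, so the difference between arms was not tested.

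Several inflammatory and stromal lists were on opposite sides of 0 in the arms, though not all. The median of antimicrobial and acute phase genes was 0.74 in DSS and 0.06 in PhIP/DSS. The median log2 ratio of neutrophil markers was 4.13 in DSS and -4.43 in PhIP/DSS, that of macrophage and monocyte markers 1.66 and -2.33, and that of fibroblast and matrix genes 1.16 and -1.95. Summed neutrophil markers stood at 73.7 and 1401 RPKM on days 1 and 3 of DSS and at 986 and 61.7 on the same days of PhIP/DSS. Summed adipocyte markers were at 165 RPKM in PhIP/DSS day 1, 6.795 in PhIP/DSS day 3 and 6.89 in DSS day 3. Erythroid markers were at a summed 105 RPKM in PhIP/DSS day 1 and at 24.2 and 12.9 on days 1 and 3 of DSS. Their part in the difference between arms was not tested.

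Medians of goblet cell and cell division genes were on the same side of 0 in both arms. The goblet cell median was 0.65 in DSS and 0.92 in PhIP/DSS, that of mitosis genes -0.48 and -0.79 and that of DNA replication genes -0.40 and -0.70. Spink1 was at 170 and 474 RPKM in PhIP/DSS, Plet1 at 130.5 and 298, Mmp7 at 8.81 and 27.0, Car1 at 1881 and 714 and Alpi at 48.4 and 14.5, each in the direction seen in DSS. Among the 43 genes higher in both arms 20 reached 5 RPKM in the DSS pair, and among the 28 lower in both 11 did. Named after their values were seen, the former include Cd177 (72.5 and 168 RPKM in DSS, 41.9 and 218.5 in PhIP/DSS), Casp14, St6galnac1 and Fxyd4, and the latter Psca (54.8 and 17.3 in DSS, 28.75 and 6.64 in PhIP/DSS), Alpi, Pdk4 and Slc51a, a bile acid transporter subunit.

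**Figure D5:**
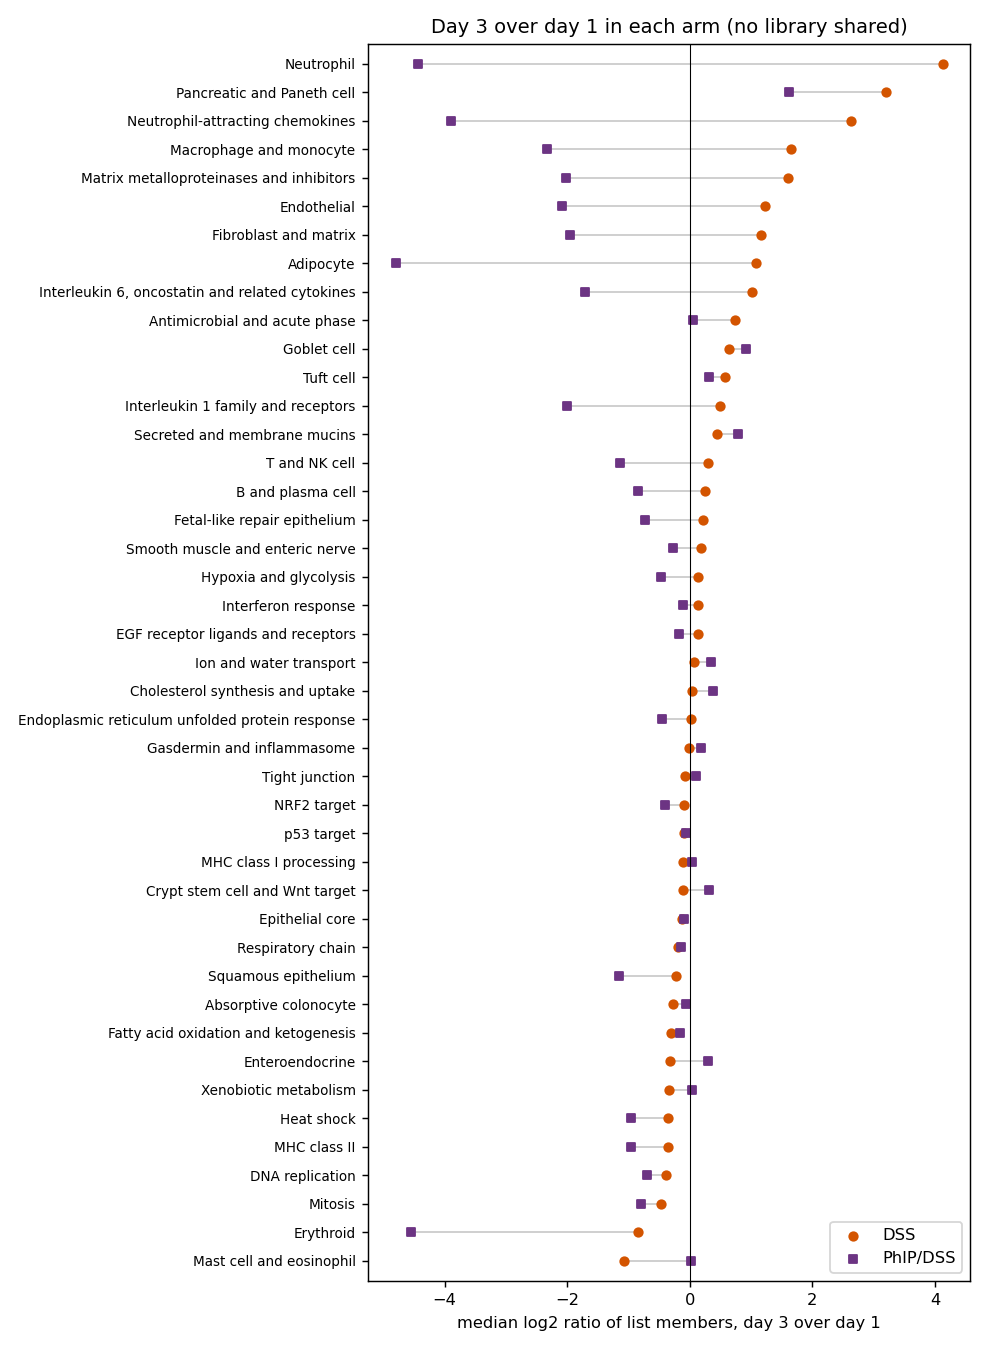
Median log2 ratio, day 3 over day 1, of the members with at least 10 reads of 43 gene lists in the DSS arm (orange circles) and the PhIP/DSS arm (purple squares), ordered by the DSS median; the arms share no library. The neutrophil medians lie at 4.13 and -4.43, whereas goblet cell and mitosis medians lie on the same side of 0 in both arms.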

How the data were processed

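RNA sequencing measured gene expression in colon epithelium pooled from 3 mice per library. The authors deposited, per the file headers, a read count per gene of uniquely mapped reads and an RPKM value, which equals that count divided by gene length and library total. The build mm10 and FastQC are named per the submitters' processing notes. The aligner, counter, annotation and strand rule behind the counts remain not given in the sources used here. Table names carry day codes 3, 7 and 17 where the labels give days 1, 3 and 7, and the labels were followed. Gene symbols came from the RefSeq table of GRCm38.p6 and matched 17983 of 18036 gene numbers.

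Tables were joined on gene number, and a gene missing from a table was given 0 reads. Genes with at least 10 reads over the pair were compared by the ratio of reads scaled to library totals, with an exact 95% Clopper-Pearson interval and a floor of 3 reads where a library had 0. With 1 library a day no test was run. Named genes were the 15 with the highest and 15 with the lowest ratio among those counted with at least 5 RPKM, the 10 with the largest gain and the 10 with the largest loss in RPKM, and members of 43 gene lists, with up to 2 at each end of a list named by rule and others added after their values were seen. The members and lists were chosen with earlier results of these data known. The alternatives were TMM factors (edgeR 4.0.16), DESeq2 1.42.0 size factors, scaling to epithelial markers, other filters and folds, and log2 RPKM values. Python 3.11.15, numpy 2.4.6, pandas 2.3.3, scipy 1.17.1, matplotlib 3.10.9 and R 4.3.3 were used, and the ratio and interval were tested on simulated data. A few genes are not reported here.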

Additional observations from a re-analysis of the deposited data

Results flagged for a closer look

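These results were on opposite sides of 0 in the arms, with 1 pool a day in each, and the differences were not tested. Each value is the log2 ratio of day 3 over day 1 in DSS minus that in PhIP/DSS. For list medians the value was 8.57 for neutrophil markers, 6.52 for neutrophil-attracting chemokines, 2.73 for interleukin 6, oncostatin and related cytokines, 3.99 for macrophages and monocytes and 3.63 for matrix metalloproteinases. It was 3.11 for fibroblasts and matrix, 3.31 for endothelium and 5.88 for adipocytes, a list of which only 2 members had 10 reads in the DSS pair.

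Among single genes high on day 3 of DSS, the value was 11.18 for Mmp8, 9.63 for S100a8, 10.04 for S100a9, 8.81 for G0s2, 12.04 for Ngp, 10.34 for Retnlg, 12 for Chil3 and 10.30 for Lcn2. It was 8.86 for Trem1, 7.42 for Mmp9, 7.27 for Asprv1, 7.25 for Csf3r, 9.29 for Fpr1, 9.55 for Chil1, 8.42 for Il1r2 and 10.32 for Saa3. Genes lower on day 3 of DSS and higher on day 3 of PhIP/DSS gave -5.26 for Fabp6, -5.38 for Mptx1, -3.52 for Krtap3-1, -2.63 for Gsdmc4, -2.64 for Gsdmc3 and -3.28 for Tgm3.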

How the results depend on the processing

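The count of genes higher on day 3, 657, was 423 with at least 50 reads over the pair, 252 at 4-fold and 281 on log2(RPKM + 1). The count of lower genes, 164, was 83, 37 and 50 in the same order, 96 with scaling to epithelial markers, 454 at 1.5-fold and 323 at 2-fold without the counting interval. At 1.5-fold 942 genes were higher, and the higher share of genes counted was 67.5% in place of 80%. TMM scaling gave 687 higher and 149 lower, DESeq2 size factors 679 and 150, and no filter 674 and 183. No named gene that was counted as higher or lower changed direction under the alternatives run for it, but none could have done so. Those alternatives were other scalings, which shift all log2 ratios alike and by less than 2-fold, and constants added to RPKM. Of the values of named genes, 837 stayed inside the counting interval of the main ratio and 93 moved outside it. With scaling to the epithelial markers 65 of them moved. Over the list medians under 7 alternatives, 292 stayed within 1.5-fold and 9 moved. Among the latter were the neutrophil median at 2.91 and the metalloproteinase median at 0.91 on log2(RPKM + 1), and tuft cells at -0.17 with no filter. The other scalings shift ratios by less than 1.5-fold, so no list median could move under them. No paired analysis was possible because the labels give 1 library per condition and no replicate numbers, and for the same reason no replicate could be left out. Depth limits genes of few reads: 3211 genes with reads had fewer than 10 over the pair and were not compared, and spread between mice cannot be estimated from a pool.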

Other observations

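Several genes outside the lists, named after their values were seen, also differed between day 1 and day 3 of DSS. Srgn, the proteoglycan core protein of leukocyte granules, stood at 21.4 RPKM on day 1 and 138 on day 3 (6.46-fold, interval 5.50 to 7.62). Acod1, which makes itaconate in activated macrophages, was at 3.45 and 43.7 RPKM (12.7-fold, 10.04 to 16.15), and Hp, haptoglobin, at 8.56 and 54.4. The adaptors of leukocyte receptors Fcer1g and Tyrobp were at 18.45 and 72.0 RPKM and at 5.47 and 30.5. Cebpb, a transcription factor of the C/EBP family, was at 8.285 and 24.3 RPKM, and Neat1, a nuclear long noncoding RNA, at 52.6 and 136.

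Among lower genes outside the lists, Mgll, monoglyceride lipase, was at 22.7 RPKM on day 1 and 9.64 on day 3 (2.35-fold lower, interval 2.07 to 2.68). Cyp2c66, a cytochrome P450 gene with close relatives, had 34 reads on day 1 and 4 on day 3 (8.55-fold lower, 3.05 to 33.2).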
